A study of Rattus norvegicus with 44 samples.

Results

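The 7 genes described here encode the receptors by which cells bind the constant part of IgG antibodies, with 2 of their signaling partners and the leukocyte phosphatase CD45. They are the activating receptors Fcgr1a, Fcgr2a and Fcgr3a, the inhibitory receptor Fcgr2b, the adaptor Fcer1g, the kinase Syk and the phosphatase Ptprc. They were chosen by gene symbol from the authors' table of normalized values, in which the rows of a gene were summed, and they are 7 of the 18347 genes of the table. All 7 had a mean of at least 5 over the rats and were among the 15598 genes tested. RNA was sequenced from the dentate gyrus (DG) of 1 hemisphere of 44 male F344 rats, and each rat gave 1 library. The young group (YNG, n = 10) received vehicle and was 6 months old. Older rats were treated from 12 months of age and sampled at 18 months, and the deposited labels give them as 12 months old. They had received vehicle (AV, n = 12), ABT-263 at 12 mg/kg, an inhibitor of BCL2 family proteins (AA, n = 11), or dasatinib, a tyrosine kinase inhibitor, at 1.2 mg/kg together with the flavonoid quercetin at 12 mg/kg (ADQ, n = 11), for 5 days in each of 8 cycles before behavioral testing. The paper adds a final round of treatment after that testing and before the tissue was taken. The labels give only age, so an older rat was assigned to its arm by its name in the deposited attribute table.

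Fc gamma receptors are carried in the brain mainly by microglia and by macrophages at the borders of the tissue. When an antibody-coated particle clusters an activating receptor, kinases of the Src family phosphorylate the receptor's paired adaptor Fcer1g, Syk docks on the phosphorylated motif, and lipid enzymes and actin regulators downstream drive engulfment. Fcgr2b carries an inhibitory motif in its own tail, which recruits the lipid phosphatase Inpp5d and dampens the same chain, while Ptprc removes the inhibitory phosphate of Src family kinases and is present on all nucleated blood cells, low in resting microglia and high in lymphocytes.

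Promoter sequences are shown for 2 members on chromosome 13, because Ptprc was among the members that differed most between ages and Fcgr3a is a close neighbor of Fcgr2a there. Each runs from 250 bases before to 50 bases after the annotated start of the gene, and the capitals mark the 6 letters GGAAGT, the core to which ETS factors such as PU.1 of myeloid cells can bind, or its other strand ACTTCC. The sequences are from RefSeq on the GRCr8 build, which is not the rn6 build of the authors' alignment, and lie at chr13:52259697-52259996 on the minus strand and at chr13:85782386-85782685 on the plus strand.
Ptprc: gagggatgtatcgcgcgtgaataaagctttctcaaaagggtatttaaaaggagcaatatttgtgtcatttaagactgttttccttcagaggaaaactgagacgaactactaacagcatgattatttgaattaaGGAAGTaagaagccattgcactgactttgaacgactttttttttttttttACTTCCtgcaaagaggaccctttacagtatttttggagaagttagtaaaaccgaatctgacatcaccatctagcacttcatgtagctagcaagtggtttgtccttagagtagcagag
Fcgr3a: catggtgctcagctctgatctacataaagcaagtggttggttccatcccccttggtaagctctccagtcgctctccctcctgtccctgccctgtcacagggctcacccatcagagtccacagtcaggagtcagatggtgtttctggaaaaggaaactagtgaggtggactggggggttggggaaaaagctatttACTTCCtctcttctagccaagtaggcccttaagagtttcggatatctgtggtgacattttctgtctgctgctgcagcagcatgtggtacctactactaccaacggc
The Ptprc promoter held the letters 2 times, 1 on each strand, and the Fcgr3a promoter held them 1 time. Syk held 1 match and the promoters listed for Fcgr2a held 0. Of all 33469 promoters of this length, 22.6% held at least 1 match and 3.72% held 2 or more, so a single match was common. Only 4 of the 7 members were matched in the table of promoters (Fcgr2a, Fcgr3a, Ptprc and Syk).

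The total of the normalized values was 14297964 to 20579982 per rat. The 6 dentate granule cell markers tested, among them Prox1, were above 0 in every rat, while Tdo2, below the filter, was at 0 in 28. The summed value of that list was 11599 to 16910 in YNG and 6994 to 16675 in AV. It was 3905 to 15052 in AA and 10802 to 14451 in ADQ, so the sum was uneven between rats. Whether tissue makeup differed was not tested. Homeostatic microglia markers (11 tested, among them Csf1r, Selplg and Sall1) were above 0 in all 44 rats. In 4 AV rats, numbered 3999, 3989, 4009 and 4568, the mean log2 value of the T and NK cell marker list was 5.01, 5.72, 6.30 and 6.39, whereas no other rat exceeded 3.24. Of the 22 markers on that list 17 were in the table and 11 were tested. The summed value of the 17 was 73.7 to 229 in YNG and 71.5 to 2183 in AV, against 74.4 to 300 for AA and 67.8 to 196 for ADQ. Nkg7 was at 0 in 28 rats and Cd8a at 0 in 27. Lck and Zap70, in contrast, were above 0 in every rat, and Cd3e was at 0 in 2. Of the 11 tested, 6 were higher in AV than in YNG (10.6% of all genes). Members and pathway genes called in a comparison with AV are therefore given with and without the 4 AV rats, and counts of cell markers with all rats. In bulk tissue, fewer cells of a type and less RNA per cell cannot be told apart. As a check by rat number, the rats were split into series a (older rats numbered up to 4011 and YNG V1 to V6, 22 rats) and series b (older rats from 4031 and YNG V9 to V12, 22 rats). The labels name no batch, date no number and tie no YNG number to those of the older rats. In series b the AV rats are numbered 4566 to 4572 and the AA and ADQ rats 4031 to 4110, so there a difference from AV cannot be told apart from one between these runs of numbers.

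Against YNG, 4 of the 7 members were higher in AV (Fcgr2b, Ptprc, Fcgr3a and Syk) at an unadjusted limma p below 0.05. At that threshold 2 were higher in AA and 2 in ADQ (Fcgr2b and Ptprc in both), and none was lower. The paper used the same cutoff, but on p from DESeq2. By the limma threshold 10.6% of all genes tested were higher in AV, with 12.6% for AA and 13.5% for ADQ. After Benjamini-Hochberg adjustment over all genes, 2 members remained higher in AV, 1 for AA and 1 for ADQ, where 1.81%, 1.55% and 3.12% of all genes did. With the older groups pooled, 3 members were higher than in YNG (15.7% of all genes) and 2 after adjustment (6.65%). The 3 comparisons with YNG share the same 10 young rats, as do the comparisons with AV its 12 rats.

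**Figure D1:**
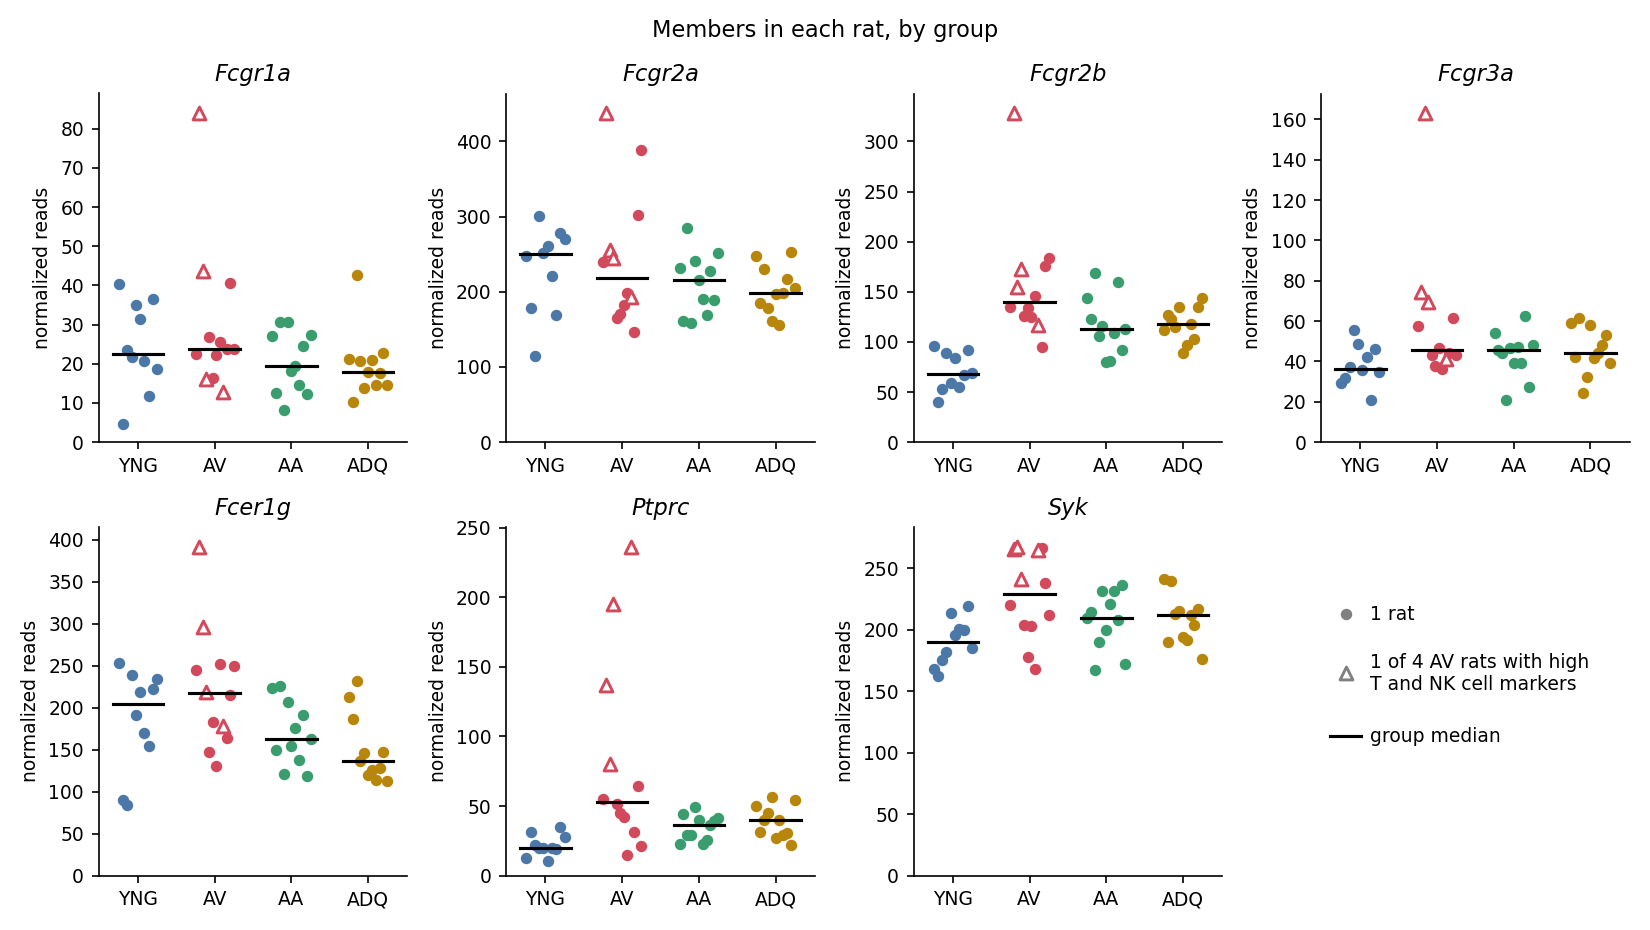
Normalized value of each member in every rat (vertical axis, scaled by the authors to the size of each library) by group, with 1 point per rat, triangles for the 4 AV rats with high T and NK markers and a line at the median. Fcgr2b lies above the highest YNG rat in 29 of 34 older rats, and Ptprc reaches 236 in AV while no AA or ADQ rat exceeds 56.5.

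The inhibitory receptor Fcgr2b showed the clearest separation by age. Its normalized value was 39.99 at the lowest, 67.6 at the median and 96.1 at the highest in YNG. The corresponding values were 94.8, 140 and 328 in AV, 80.1, 113 and 169 in AA, and 89.4, 118 and 144 in ADQ. All 34 older rats lay above the YNG median and 29 of them above the highest YNG rat (11 of 12 AV, 8 of 11 AA and 10 of 11 ADQ), and the highest value belonged to AV rat 3989. The log2 difference from YNG was 1.13 in AV (SE 0.16, 2.19-fold, limma adjusted p = 1.18e-05), which placed it in position 5 of 15598 genes by p. It was 0.74 in AA (SE 0.16, 1.67-fold, limma adjusted p = 0.0184) and 0.77 in ADQ (SE 0.16, 1.71-fold, limma adjusted p = 0.00766). A permutation test of the group means gave p = 1e-05 for AV, the smallest that 100000 resamples allow, 0.00028 for AA and 2e-05 for ADQ. The rise was present in both series, at 1.15 and 1.17 for AV, 0.80 and 0.77 for AA, and 0.72 and 0.90 for ADQ in series a and b on the log2 scale. Without the 4 AV rats with high T and NK markers it was 1.004 in AV (limma adjusted p = 0.000213).

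The activating receptors differed less. Fcgr1a, the high-affinity receptor for IgG, had a median of 22.6 in YNG (4.51 to 40.4), 23.8 in AV (12.8 to 83.95), 19.5 for AA (8.22 to 30.8) and 18.02 for ADQ (10.3 to 42.7). Fcgr2a, a low-affinity activating receptor, had a median of 249.7 in YNG (115 to 301), 219 in AV (147 to 438), 215 for AA (159 to 285) and 198 for ADQ (157 to 254). The groups overlapped throughout for both genes, and AV rat 3989 was the highest of all in each. Neither gene passed the test in any of the 7 comparisons. For Fcgr2a the log2 difference from YNG was 0.06 in AV (95% interval -0.26 to 0.37), -0.09 for AA (-0.41 to 0.23) and -0.14 for ADQ (-0.46 to 0.18). For Fcgr1a the intervals were wider, -0.29 to 0.86 around 0.29 in AV.

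Fcgr3a, the low-affinity receptor that pairs with Fcer1g on phagocytes and NK cells, had a median of 36.5 in YNG (20.9 to 55.4), 45.5 in AV (36.4 to 163), 45.5 for AA (21.02 to 62.6) and 44.4 for ADQ (24.6 to 61.7). Of the AV rats 11 of 12 lay above the YNG median but only 5 above the highest YNG rat, and rat 3999 alone was above 100. The log2 difference was 0.54 in AV (SE 0.20, 1.46-fold, limma p = 0.0085, adjusted p = 0.114), and 0.17 in AA and 0.26 in ADQ, which did not pass. Leaving out the 4 AV rats with high T and NK markers brought it to 0.30 (limma p = 0.113). Within series a the AV difference was 0.86 (limma p = 0.0118) and within series b it was 0.20 (p = 0.348).

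Fcer1g, the adaptor through which the activating receptors signal, did not pass against YNG in any group. Its median was 205 in YNG (84.2 to 253), 217 in AV (130 to 392), 163 for AA (118 to 226) and 136 for ADQ (113 to 232). The ADQ rats sat at the low end of the older groups, 5 of 11 of them below the lowest AV rat. Syk, the kinase that docks on the phosphorylated adaptor, was the least variable member, with a median of 190 in YNG (162 to 219), 229 in AV (168 to 267), 209.5 for AA (167 to 236) and 212 for ADQ (176 to 241). The ranges overlapped, and 7 of 12 AV rats were above the highest YNG rat. Syk was 0.25 higher on the log2 scale in AV than in YNG (SE 0.08, 1.19-fold, limma p = 0.00436, adjusted p = 0.0912), and 0.14 without the 4 AV rats with high T and NK markers (limma p = 0.105). Within series a and b the AV difference was 0.19 (limma p = 0.122) and 0.34 (p = 0.0127).

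Ptprc, the phosphatase that keeps Src family kinases ready to act, was the most variable member among the AV rats. Its normalized value was 10.8 at the lowest, 19.8 at the median and 34.7 at the highest in YNG. In AV the values were 14.98, 53.2 and 236, in AA 22.4, 36.2 and 48.96, and in ADQ 21.99, 39.6 and 56.5. The AV rats ran from within the YNG range to far above it, and the 4 highest, at 80.2, 137, 195 and 236, were the 4 rats with high T and NK markers, while the other 8 AV rats lay between 14.98 and 64.5. Of the older rats 33 of 34 were above the YNG median and 21 above the highest YNG rat (9 of 12 AV, 6 of 11 AA and 6 of 11 ADQ). The log2 difference from YNG was 1.49 in AV (SE 0.30, 2.8-fold, limma adjusted p = 0.00359), 0.68 in AA (1.6-fold, p = 0.0312, adjusted p = 0.147) and 0.82 in ADQ (1.77-fold, p = 0.00971, adjusted p = 0.0765).

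Without the 4 AV rats the Ptprc difference in AV was 0.83 on the log2 scale (limma p = 0.00117, adjusted p = 0.176), about the size seen in AA and ADQ. The older groups together were then 0.78 above YNG (limma adjusted p = 0.0114). In series a and b the log2 differences were 2.09 and 0.79 in AV, 0.85 and 0.42 in AA, and 1.23 and 0.37 in ADQ. None of the series b values passed the test (limma p = 0.108, 0.384 and 0.44). The change of the AV difference between the series was -1.30 (limma interaction p = 0.0317, adjusted p = 0.183). Of the 4 rats with high T and NK markers, 3 belonged to series a, and series b held 4 YNG rats. The spread of Ptprc in AV, a mean absolute deviation of 0.88 from the median on the log2 scale, was above 0.32 in AA and 0.36 in ADQ and YNG, but with 21 such tests, added after the values were seen, none passed adjustment (permutation p = 0.0277 against AA, adjusted p = 0.255).

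**Figure D2:**
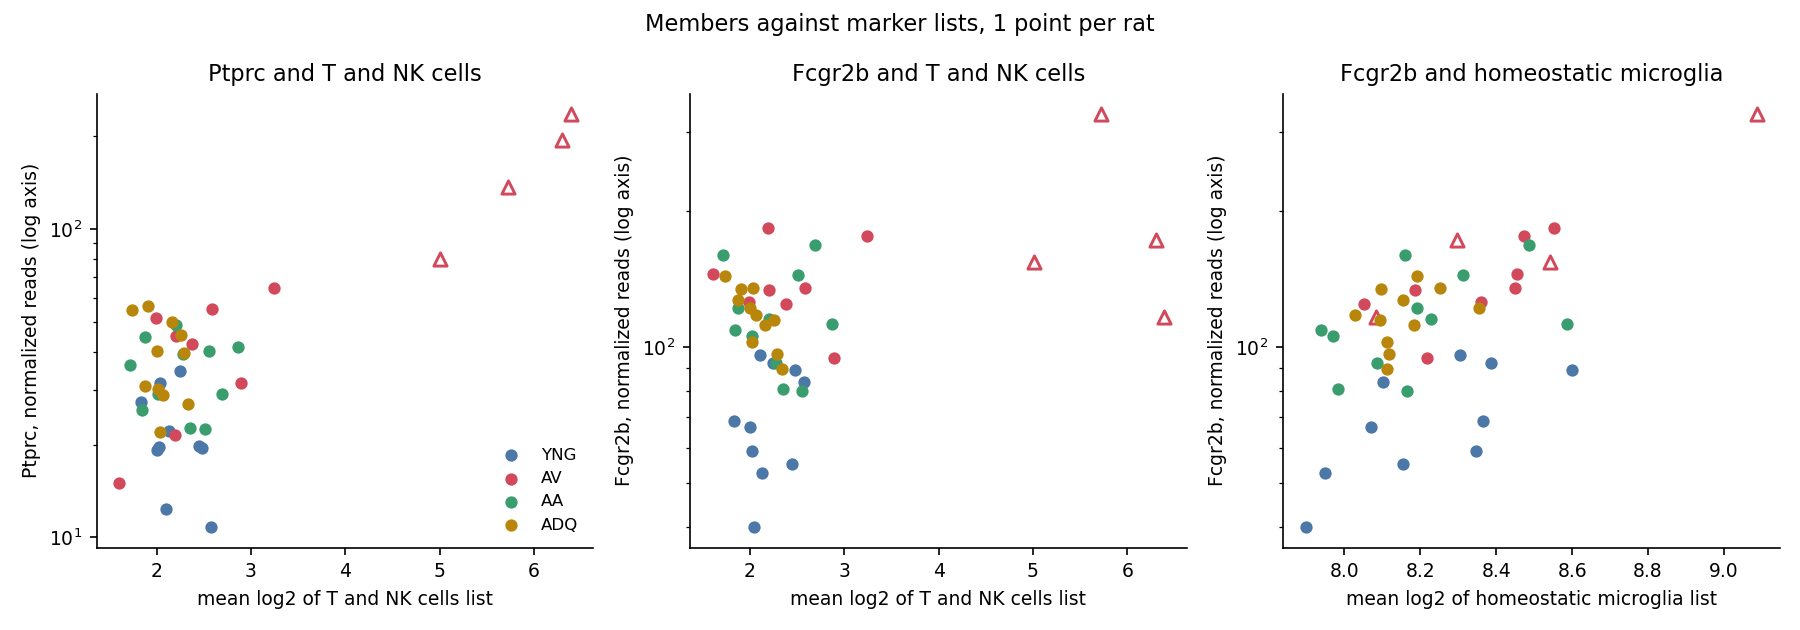
Normalized value of Ptprc or Fcgr2b (vertical, log axis) against the mean log2 value of the T and NK cell or homeostatic microglia markers (horizontal), 1 point per rat, colored by group, with triangles for the 4 AV rats with high T and NK markers. The triangles lie at 5.01 to 6.39 on the T and NK axis, where no other rat exceeds 3.24, and they are the 4 highest rats in Ptprc but not in Fcgr2b.

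**Figure D3:**
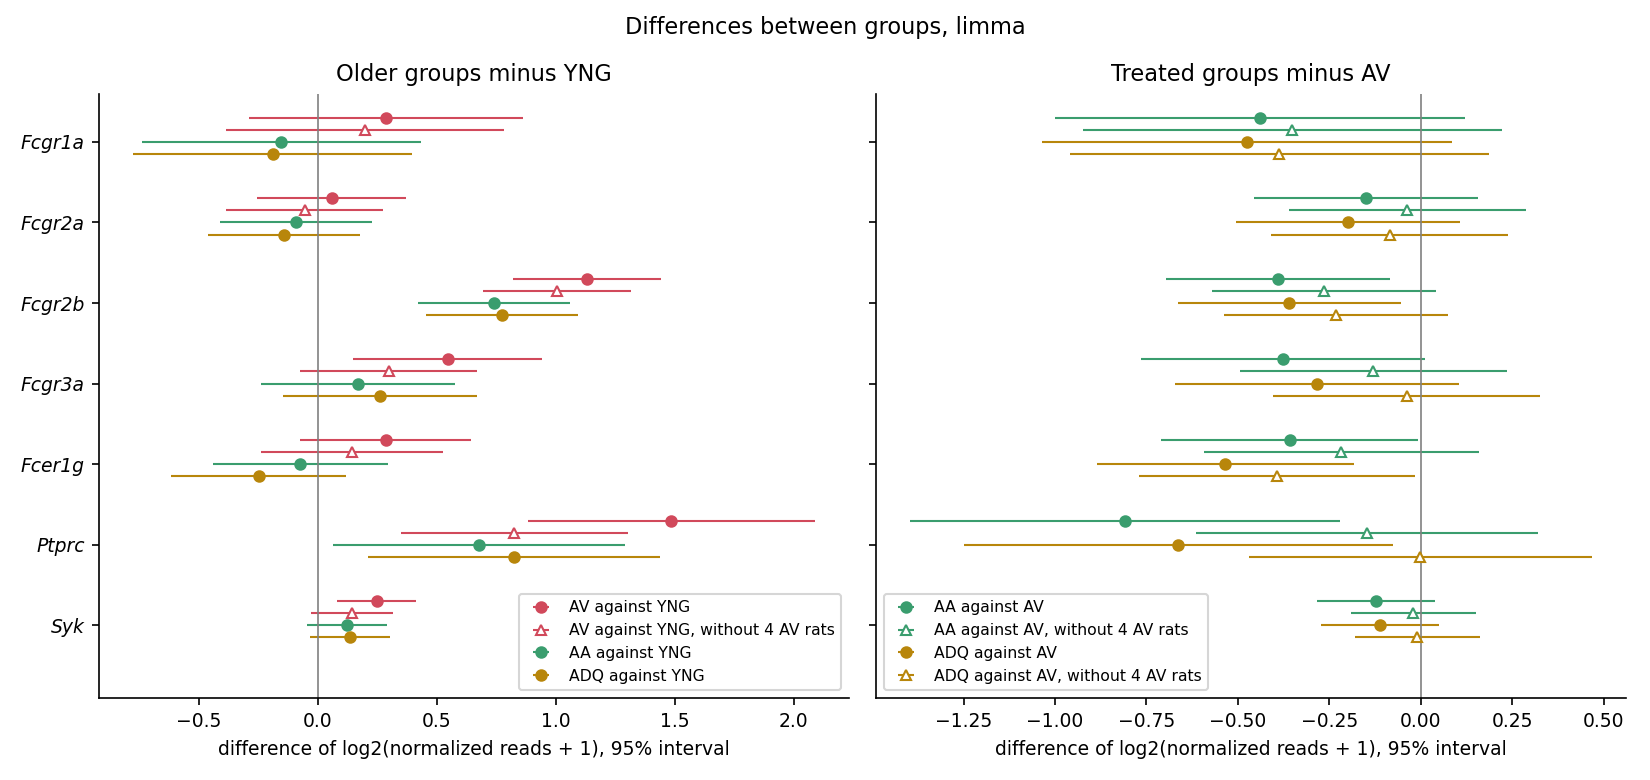
Log2 difference of each member between groups (point) with its 95% interval (bar) from limma, for all 44 rats (filled circles) and, in comparisons with AV, without the 4 AV rats with high T and NK markers (open triangles). The intervals of Fcgr2b lie above 0 in AV, AA and ADQ against YNG, and those of Ptprc against AV cross 0 once the 4 rats are left out.

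Treated rats were compared with AV to ask whether either senolytic moved these genes. Against AV, 3 members were lower in AA and 3 in ADQ (Fcgr2b, Fcer1g and Ptprc in both) at the unadjusted threshold, against 3.10% and 5.90% of all genes that were lower. After adjustment by limma none was, nor was any gene of the table, whose smallest adjusted p was 0.526 in AA and 0.134 in ADQ. The log2 difference of Fcgr2b from AV was -0.39 in AA (SE 0.15, limma p = 0.0133, adjusted p = 0.999) and -0.36 in ADQ (SE 0.15, p = 0.0221, adjusted p = 0.461), and 3 of 11 AA rats and 1 of 11 ADQ rats lay below the lowest AV rat. That of Fcer1g was -0.36 in AA (SE 0.17, limma p = 0.0451, adjusted p = 0.999) and -0.53 in ADQ (SE 0.17, p = 0.00362, adjusted p = 0.27). That of Ptprc was -0.81 in AA (SE 0.29, limma p = 0.00804, adjusted p = 0.999) and -0.66 in ADQ (SE 0.29, p = 0.0278, adjusted p = 0.478). The permutation tests gave p = 0.0425 and 0.0963 for Ptprc, and 0.0399 and 0.00538 for Fcer1g.

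All 6 of these differences were smaller without the 4 AV rats. Ptprc then differed by -0.15 in AA (limma p = 0.53) and by 0.00 in ADQ (95% interval -0.47 to 0.47), and Fcgr2b by -0.26 (p = 0.0892) and -0.23 (p = 0.132). Fcer1g in ADQ was the 1 call that held, at -0.39 (limma p = 0.0412, adjusted p = 0.867), and in AA it was -0.22 (p = 0.25). Leaving out AV rat 3989 alone ended the Fcgr2b call in ADQ (limma p = 0.0671), and leaving out AV rat 3989, 4009 or 4568 or ADQ rat 4106 ended the Ptprc call in ADQ (p up to 0.0814). In series a and b the Ptprc difference was -1.24 (limma p = 0.00135) and -0.37 (p = 0.388) in AA, and -0.87 (p = 0.0186) and -0.42 (p = 0.331) in ADQ. Fcer1g in ADQ was -0.39 in series a (limma p = 0.0902) and -0.63 in series b (p = 0.0103). AV rat 3989 was also highest in the summed microglia markers (8884) and in red blood cell markers (95413). Against AV the ADQ rats were lower in all 6 red blood cell markers tested and 5 of 11 microglia markers (5.90% of all genes). The AA rats were lower in 2 and 4 of them (3.10% of all genes). These marker counts include the 4 AV rats with high T and NK markers. The part of the red blood cells in the result was not tested. Between AA and ADQ 0 of the 7 members passed the unadjusted limma test, where 4.53% of all genes did, and the interval of the AA difference from ADQ was -0.34 to 0.28 for Fcgr2b, -0.18 to 0.53 for Fcer1g and -0.75 to 0.45 for Ptprc.

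To set the members against microglia markers, the mean log2 value of the 11 homeostatic microglia markers was taken off each rat's value. The group mean of that list was 8.22 (YNG), 8.396 (AV), 8.19 (AA) and 8.15 (ADQ). Relative to it, Fcgr2b was still higher than in YNG, by 0.95 for AV, 0.77 for AA and 0.84 for ADQ (permutation tests, adjusted p = 0.000163, 0.000857 and 0.000163 over 49 tests). Ptprc was higher by 1.31, 0.70 and 0.89 (permutation tests, adjusted p = 0.0228, 0.0228 and 0.00751). From rat to rat Ptprc was not related to the list (r = 0.07 over 44 rats, group means taken off). These values therefore do not set Ptprc against the amount of cells that carry it. Without the 4 AV rats the Ptprc difference in AV was 0.70 (permutation p = 0.0398, adjusted p = 0.197). Within series b none of the Ptprc differences passed (0.69, 0.47 and 0.44), while those of Fcgr2b had unadjusted permutation p of 0.00471, 0.00961 and 0.00467. With 4 YNG rats against 6 in each older group, few distinct resamples exist, so p cannot fall much below the lowest of these. Passing adjustment over 49 tests was therefore hard to reach in that series. Relative to the microglia list no member differed between treated rats and AV after adjustment, with Fcgr2b at -0.19 in AA and -0.12 in ADQ, and Fcer1g at -0.29 in ADQ (permutation p = 0.0206, adjusted p = 0.101).

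From rat to rat, with group means taken off, the Fc receptors and their adaptor varied together. Over 44 rats Fcgr2a and Fcer1g had r = 0.76 and rho = 0.76 (permutation p = 1e-05 each, adjusted p = 5.83e-05 and 4.37e-05 over 35 relations), with r = 0.66 without the 2 rats farthest from the median and 0.91 and 0.75 in series a and b. Fcgr2b and Fcer1g had r = 0.68 and rho = 0.67 (permutation p = 1e-05 each, adjusted p = 5.83e-05 and 4.37e-05), with r = 0.57 without the 2 farthest rats and 0.70 and 0.62 within the series. The microglia list was related to Fcgr2a (r = 0.79, rho = 0.79, permutation p = 1e-05 each, adjusted p = 5.83e-05 and 4.37e-05), with r = 0.72 without the 2 farthest rats and 0.85 and 0.76 within the series. The relation between the receptors of opposite effect that lie side by side, Fcgr2b and Fcgr3a, was weak (r = 0.27, rho = 0.32, permutation p = 0.103 and 0.04, adjusted p = 0.169 and 0.0722), with r = 0.21 without the 2 farthest rats and 0.20 and 0.45 within the series. These rats also share tissue makeup and library properties, and Fcgr genes share sequence, so their reads can be divided between them.

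Ptprc stood apart from the receptors. Its r with the microglia list was 0.07 over 44 rats (rho = 0.12, permutation p = 0.747 and 0.46, adjusted p = 0.817 and 0.575), with r = 0.24 without the 2 farthest rats and 0.29 and -0.23 within the series. The 4 AV rats form a separate cluster in its relation to the T and NK cell list, so no value over all rats is given. Over the other 40 rats that relation had r = 0.13 and rho = 0.00 (permutation p = 0.499 and 0.999, adjusted p = 0.647 and 0.999), with r = 0.02 without the 2 farthest rats and -0.25 and 0.46 within series a and b. In the same 40 rats r between Ptprc and each of the 5 Fc genes was between -0.21 and 0.07. Syk was likewise not related to the microglia list (r = 0.05, rho = 0.03, permutation p = 0.801 and 0.859, adjusted p = 0.825 and 0.912), with r = 0.01 without the 2 farthest rats and 0.40 and -0.32 within the series.

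**Figure D4:**
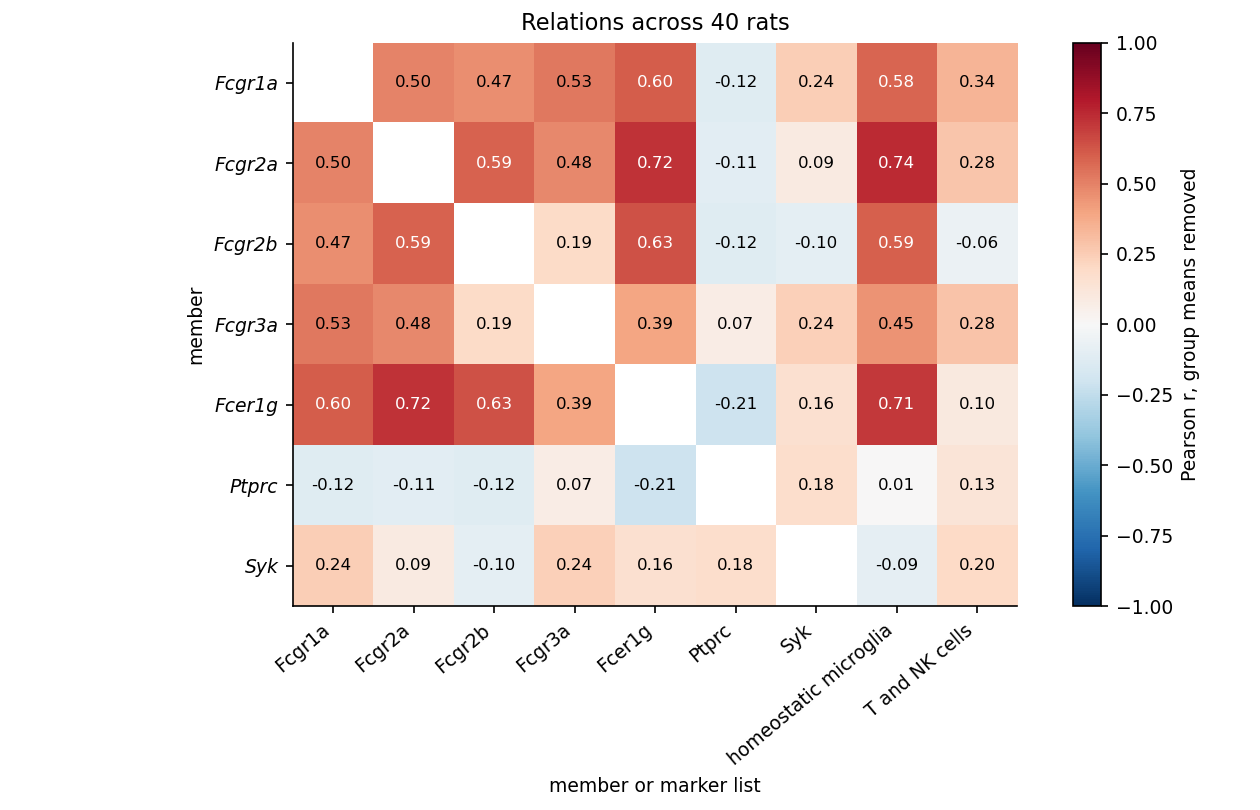
Pearson r between the members, and with 2 marker lists, across 40 rats after group means were taken off (without the 4 AV rats with high T and NK markers). Fcgr2a, Fcer1g and the microglia list reach 0.71 to 0.74 with each other, while Ptprc stays between -0.21 and 0.18 with every member and list.

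Among all genes tested, those whose values across the 44 rats were most like each member, with group means taken off, were taken by Pearson r as a description. The closest were Tmem176b (r = 0.85), Laptm5 (0.84) and Cd63 (0.84) for Fcgr2a, and Pdpn (0.87), P4hb (0.87) and Tmem176a (0.86) for Fcer1g. For Fcgr2b they were the lysosomal membrane gene Laptm4a (0.75), the mitochondrial gene Mt-co1 (0.74) and the lysosomal protease Ctsh (0.74), for Fcgr1a Lxn (0.73), Trim5 (0.73) and the astrocyte filament gene Gfap (0.72), and for Fcgr3a Hcar2 (0.69), the myeloid transcription factor Irf8 (0.65) and RT1-A1 (0.64). For Ptprc they were Vegfa (0.76), Abcc9 (0.76) and Adamts1 (0.75), and without the 4 AV rats Wrn (0.78), Itprid2 (0.76) and Slc16a1 (0.74). Syk had the lowest values, with Mgp (0.58), Pkmyt1 (0.56) and Spag1 (0.55). The rats share libraries and depth, so such values are high for many genes.

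The table divides 6 of the 7 members among several rows, and Fcer1g has 1. The main row held 97.4% of Fcgr3a, 80.2% of Fcgr1a, 71.6% of Syk, 65.0% of Fcgr2b and 64.8% of Ptprc, whereas Fcgr2a was split into rows of 36.6%, 26.4%, 25.1% and 11.8%. The division was unstable in some genes, with the first row of Ptprc holding 2.92% to 100% of the gene in single rats. Of 98 permutation tests of a row's share between groups, 0 passed adjustment and 12 passed unadjusted. The rise of Fcgr2b was seen in both of its larger rows, with means of 43.9 in YNG and 104, 82.6 and 70.7 in AV, AA and ADQ for the first and 25.5, 52.1, 33.5 and 40.3 for the second.

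Lists of 100 genes that act with these receptors held 95 genes that were tested. In AV against YNG 32 of them were higher and 6 lower (33.7% and 6.32%, against 10.6% and 10.7% of all genes), with a median log2 difference of 0.14 against 0.00 over all genes. After adjustment 4 of the 95 passed in either direction, where 367 of all 15598 genes did. Without the 4 AV rats 16 of the 95 were higher and 6 lower, where 5.31% and 4.01% of all genes were, and 0 of the 95 passed adjustment by limma. Against YNG 17 were higher and 7 lower in AA (17.9% and 7.37%, with 12.6% and 14.1% of all genes), and 19 were higher and 15 lower in ADQ (20% and 15.8%, with 13.5% and 14.6% of all genes). Against AV 10 were lower and 0 higher in AA (10.5% lower, with 3.10% of all genes), and 21 were lower and 3 higher in ADQ (22.1% lower, with 5.90% of all genes). Without the 4 rats 0 were lower and 1 higher in AA, and 6 were lower and 0 higher in ADQ (6.32% lower), where 1.17% and 2.60% of all genes were lower. The kinase Lck, among the 95, is also on the T and NK cell list by which the 4 rats were chosen.

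In AV against YNG 10.6% of all genes were higher. The share of lower genes and the shares without the 4 AV rats are those given above. No count of a single list was tested against these shares. The kinases had 4 of 20 higher and 1 lower in AV, and 2 and 1 without the 4 AV rats. The Src family kinase Lyn was 0.41 higher on the log2 scale, and without the 4 rats it was at 0.14 and no longer passed (limma p = 0.364). Adaptors and exchange factors had 6 of 13 higher, and 3 without the 4 rats, among them Blnk (0.50 and 0.38), a docking protein for Syk substrates, and Vav2 (0.41 and 0.41), an exchange factor for small GTPases. The lipid enzymes had 8 of 16 higher and 2 lower, and 7 and 1 without the 4 rats, including the phosphoinositide kinase subunits Pik3cg (0.50, limma adjusted p = 0.0188) and Pik3r5 (0.68, adjusted p = 0.0324) and the phospholipase Plcg2 (0.56, adjusted p = 0.0346), which were 0.35, 0.36 and 0.31 without the 4 AV rats and then passed only unadjusted. The inhibitors had 6 of 14 higher, and 1 higher and 1 lower without the 4 rats. Inpp5d, the lipid phosphatase that Fcgr2b recruits, was 0.43 higher with all rats and at 0.28 without the 4, where it no longer passed (limma p = 0.0939). Sirpa, the receptor of the signal that spares cells from engulfment, was 0.30 and 0.24 higher. Genes of actin and engulfment had 8 of 32 higher and 3 lower, and 3 and 3 without the 4 rats, with the actin nucleator subunit Arpc1b at 0.61 (limma adjusted p = 0.0165) and 0.29 without the 4 rats (adjusted p = 0.494). Akt2 (-0.24 with and without the 4 rats) and Pik3ca (-0.31 and -0.24) were among those lower.

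The list of other receptors that pair with motif-bearing adaptors also holds the adaptors Tyrobp and Cd247 and the inhibitory receptor Cd300a. Cd247 is also among the T and NK cell markers by which the 4 AV rats were chosen, so its part in these counts is not independent of that choice. Of the 10 genes of the list that were tested, 6 were higher in AV than in YNG (10.6% of all genes) and 3 after adjustment (1.81%). Without the 4 AV rats these counts were 3 and 1. The integrin chain Itgb2 was 0.80 higher (limma adjusted p = 0.000307) and 0.51 higher without the 4 AV rats (adjusted p = 0.0117), Cd300a was 1.02 higher (adjusted p = 0.0171) and Tyrobp, the microglial counterpart of Fcer1g, 0.62 higher (adjusted p = 0.033). Without the 4 rats Cd300a was 0.90 higher (limma p = 0.00185, adjusted p = 0.208) and Tyrobp 0.32 higher (p = 0.0426, adjusted p = 0.531). Against AV 8 of the 10 were lower in ADQ (5.90% of all genes) and 4 in AA (3.10%), and 2 (2.60%) and 0 (1.17%) without the 4 rats, with 0 after adjustment by limma in any of these. The log2 difference of Itgb2 in ADQ was -0.53 (limma p = 0.00016, adjusted p = 0.134), and -0.24 without the 4 rats (p = 0.0218, adjusted p = 0.867). Of the receptor tyrosine phosphatases, the family of Ptprc, 4 of 17 were higher in AV and 3 lower, and 2 and 1 without the 4 rats. The shares of all genes given above apply here too, and these counts were not tested against them. Ptprb of endothelial cells was at 0.96 (limma adjusted p = 0.0316), and at 0.65 without them (adjusted p = 0.488), and Ptpro at -0.51 (adjusted p = 0.0123) and -0.54 (adjusted p = 0.0368). Of 4 other immunoglobulin receptors tested, Fcrl2 was higher in AV (0.73, limma adjusted p = 0.0055), and by 0.48 without the 4 rats (p = 0.00199, adjusted p = 0.208). Fcgrt, the receptor that carries IgG across cells, was not (-0.04, limma p = 0.784). Of the ligands the pentraxin Ptx3, at a mean of 5.83, was the 1 gene tested and was lower in AV than in YNG (-1.17, limma p = 0.00169, adjusted p = 0.0611), and at -1.47 without the 4 rats (adjusted p = 0.0836).

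**Figure D5:**
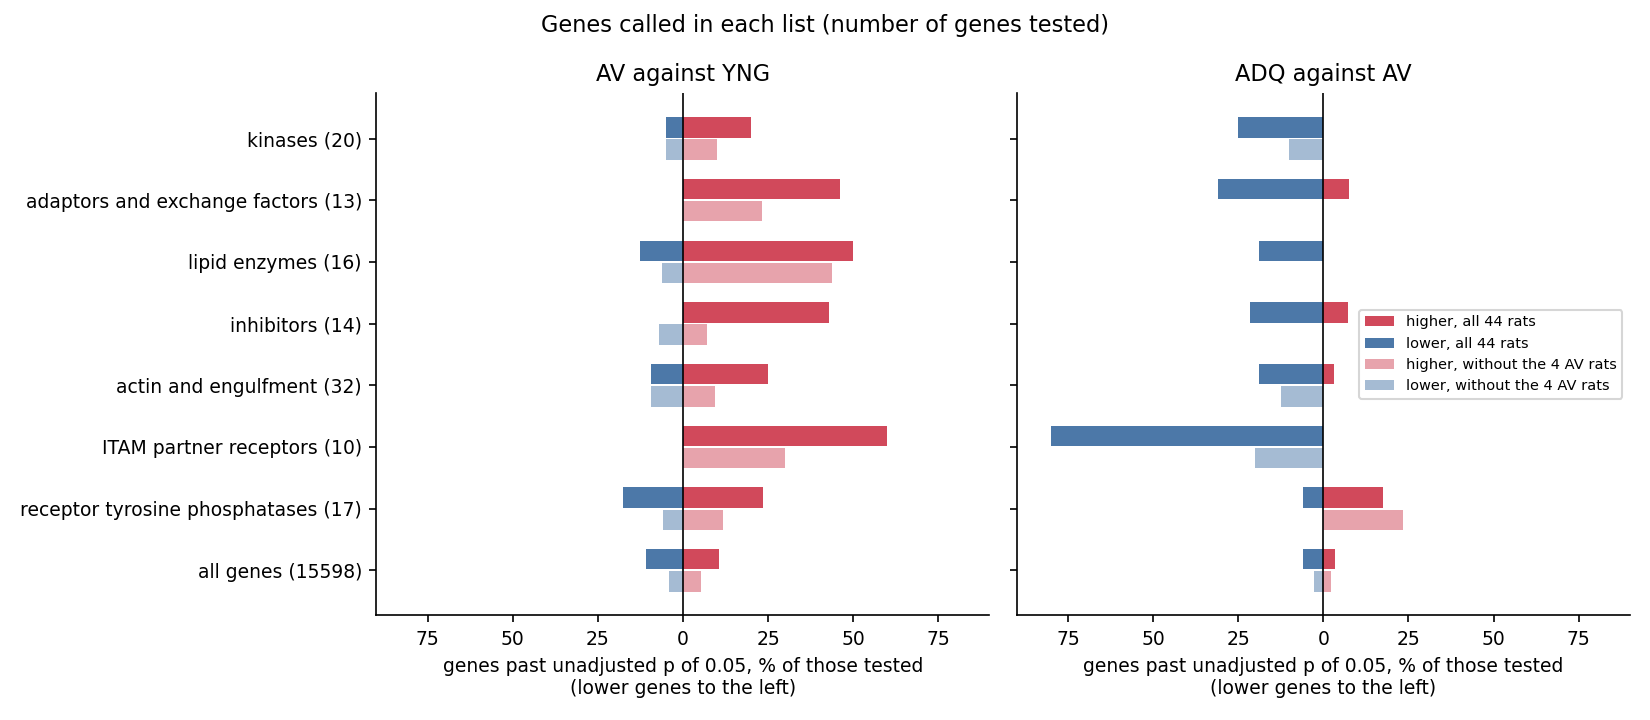
Share of the genes of each list that were higher (to the right) or lower (to the left) at an unadjusted p of 0.05, in AV against YNG and in ADQ against AV, for all 44 rats (dark) and without the 4 AV rats with high T and NK markers (pale). The list named ITAM partner receptors holds receptors that pair with motif-bearing adaptors, the adaptors Tyrobp and Cd247, and the inhibitory receptor Cd300a. Of its 10 genes, 6 were higher in AV than in YNG and 3 without the 4 rats. In ADQ 8 were lower than in AV, and 2 without the 4 rats.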

How the data were processed

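RNA of the DG was poly(A)-selected and sequenced on the Ion platform, 1 library per rat. Per the methods of the paper and the submitters' processing notes, the authors aligned reads with STAR 2.5.3a to rn6, quantified them in Partek and scaled them with the median ratio of DESeq2. The deposited table by the authors holds signal values, estimated reads divided by a size factor per library, in 24694 rows. Annotation and the model that divided reads among rows are not given in the sources used here.

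Rows of a gene identifier were summed, and genes with a mean of at least 5 were kept. Because the values are not whole counts, log2(value + 1) entered limma 3.58.1 in R 4.3.3, moderated by empirical Bayes along an abundance trend, with all 4 groups in 1 fit, two-sided tests and the paper's unadjusted p of 0.05, with Benjamini-Hochberg adjustment over all 15598 genes beside it. A fold change on this scale understates the change of low genes. Permutation tests were two-sided with 100000 resamples (Python 3.11.15, numpy 2.4.6, pandas 2.3.3, scipy 1.17.1, matplotlib 3.10.9). Scripts were tested on simulated data. Promoters came from the RefSeq table of GRCr8.

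Members and lists were chosen with earlier results of these data known. Named genes are the members, up to 4 genes of each pathway list called in AV against YNG by smallest p, up to 4 of each marker list by highest mean and the 3 genes with the highest r to each member. Prox1, Tdo2, Nkg7, Cd8a and Fcgrt were named after their values were seen. Some genes that the rule names are not reported here. Replicates are separate rats. The number of sample columns not used was 0. Alternatives were the pseudocount, the filter, the scaling, the row taken per gene, the rat series, fits of the compared groups alone, array weights and leaving out each rat, and, added after seeing the data, the omission of 4 AV rats, the adjusted threshold and a test of spread. The total per rat, 14297964 to 20579982, is after scaling and limits the precision of genes at a few reads.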

Additional observations from a re-analysis of the deposited data

How the results depend on the processing

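Of the members called, Fcgr2b against YNG kept its direction and stayed past the threshold in each older group under every alternative run. Within rat series b the number of members called was 2 in AV, 1 in AA and 1 in ADQ against YNG, and 0 in AA and 1 in ADQ against AV. Without the 4 AV rats with high T and NK markers, chosen after seeing the data, it was 2 in AV against YNG, 0 in AA against AV and 1 in ADQ against AV. With adjusted p it was 2, 1 and 1 against YNG and 0 and 0 against AV. Array weights gave 4 in ADQ against YNG (Fcgr2a and Fcer1g lower) and 1 in AA against AV. Relative to the microglia list 8 of 49 differences passed adjustment, and 1 within series b. For the row shares, 0 passed adjustment and 12 passed unadjusted. The cause of these changes was not tested. The share of all genes called within series b, with array weights or with 1 rat left out was not counted. A change in these counts can therefore not be read as particular to the members. Leaving out 1 rat at a time gave 4 in each case in AV against YNG, 1 to 2 in AA, 2 to 3 in ADQ and 2 to 4 in all older rats against YNG, 2 to 4 in AA and 1 to 4 in ADQ against AV. Between AA and ADQ the count stayed at 0. Ptprc in ADQ against AV lost its call without AV rat 3989, 4009 or 4568 or ADQ rat 4106, with p up to 0.0814, and Ptprc in AA against YNG without AA rat 3996, YNG V1 or V3. Fcgr2b in ADQ against AV lost its call without AV rat 3989 (limma p = 0.0671), Syk in all older rats without YNG V10 (p = 0.0513), and Fcer1g in AA against AV in 13 of 44 omissions. With the row of the highest mean alone, 12 of 49 differences moved by more than their standard error, counted only among those called in neither fit. For differences that were called, the size of the shift was not counted. That choice of row ended 3 calls (Ptprc in AA against YNG, Fcgr2b in AA against AV and Ptprc in ADQ against AV). It added 3 (Syk in AA and ADQ and Fcgr3a in all older rats, against YNG). Scaling to the total shifted the median of all genes by 0.10 to 0.15 against YNG, called Fcer1g in AV and Syk in AA and ADQ, and ended the Fcer1g call in AA against AV. Signs changed only among differences that had not passed, in 33 of 416 alternatives and 37 of 1408 omissions. Low members, such as Fcgr1a and Ptprc, rest on few reads per rat, and the split of reads among Fcgr genes of similar sequence is uncertain.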
